A study of Mus musculus with 58 samples.

Results

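The TAO kinase family comprised 3 genes in these data, Taok2, Taok1 and Taok3. They were chosen by name, and all 3 were present in every count table, among the 54532 genes of the RNA-seq tables and the 18411 genes of the tables of lysate RNA and ribosome footprints. TAO kinases are serine/threonine kinases of the sterile-20 type that sit at the top of MAP kinase cascades. They phosphorylate the MAP kinase kinases that activate p38 and JNK, and they also act on kinases of the Hippo pathway and on regulators of microtubules. In neurons Taok2 is known for its part in the formation of basal dendrites, together with the semaphorin receptor neuropilin 1, and in the stability of dendritic spines through Septin7. Taok2 is among the genes lost in the 16p11.2 hemi-deletion, a copy number variant of neurodevelopmental disorders, whereas Taok1 and Taok3 lie on other chromosomes.

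The data came from mouse striatum. The labels give the strain of all mice as B6129S, whereas the study's methods name C57BL/6J males for the zygotes of the 3g line. The 16p11.2 line compared 16p11.2 del/+ mice, which lack 1 copy of a chromosome 7 interval that holds Taok2, with wild-type (wt) littermates. The 3g line compared 3g del/+ mice, the 3 genes hemideletion knockout of the labels, with wt littermates. In the study's description 1 allele each of Taok2, Sez6l2 and Mvp of the 3g del/+ mice carries a premature stop codon made by CRISPR/Cas9, intended to send the transcript to nonsense-mediated decay, and the rest of the interval is intact. All mice were young adults, and none received a treatment that the labels name. Bulk RNA-seq covered both sexes, with 4 libraries for each line, genotype and sex. Ribosome footprints, which are the RNA fragments covered by translating ribosomes, and RNA from the same lysate covered other males only. There were 3 del/+ and 4 wt animals of the 16p11.2 line and 3 del/+ and 3 wt animals of the 3g line. The comparisons asked how much Taok2 RNA and how many Taok2 footprints remained in each line, and whether its paralogs differed as well.

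Taok2 (ENSMUSG00000059981) spans 7:126865674-126886296 in build GRCm38.p6, Taok1 (ENSMUSG00000017291) spans 11:77529162-77625359 and Taok3 (ENSMUSG00000061288) spans 5:117120111-117275101. Values are counts over whole genes, so they sum the reads of both alleles and of exons on either side of an edit. The Taok2 span shares 78 bases with that of its neighbour Tmem219, and reads in this stretch may have been assigned to either gene. The promoter of Taok2 is shown because it marks the difference in design between the lines: 16p11.2 del/+ mice carry it on 1 chromosome, and 3g del/+ mice carry it on both. The 250 bases before the Taok2 start in RefSeq, on the minus strand at 7:126884968-126885217 (GRCm38.p6), read as follows, with CpG dinucleotides in capitals. The RefSeq start used here lies inside the gene span, so longer transcripts begin upstream of it.
Taok2 promoter: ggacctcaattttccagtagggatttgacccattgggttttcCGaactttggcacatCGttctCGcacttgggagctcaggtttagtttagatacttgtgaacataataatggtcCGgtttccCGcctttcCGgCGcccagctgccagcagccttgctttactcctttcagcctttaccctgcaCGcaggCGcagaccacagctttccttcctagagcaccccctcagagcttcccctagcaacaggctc
The stretch held 9 CpG dinucleotides, against 26 for Taok1, 22 for Taok3 and a median of 6 over 27025 genes in windows of the same length. It held 1 CCAAT motif and no TATAAA motif on either strand. CCAAT occurred in 34.5% and TATAAA in 12.97% of the windows of all genes. The Taok1 window (11:77607816-77608065, minus strand) also lies inside its gene span. That of Taok3 (5:117119879-117120128, plus strand) lies at the start of its span. The windows of the 3 genes thus do not stand at like places, and the CpG counts are given only as a description.

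Total counts were between 11711099 and 65529807 in the RNA-seq libraries, between 15102576 and 19122488 in the lysate RNA libraries and between 342052 and 678130 in the footprint libraries. Taok2 had 1964 to 12048 counts per RNA-seq library and 23 to 99 per footprint library, so the footprint values are the least precise. All 9 markers of striatal projection neurons were present in each table, and their summed level was 4580 to 8722 CPM (counts scaled to a library total of 1e+06) in RNA-seq and 1531 to 4434 CPM in lysate RNA and footprints. No marker gene of another cell type passed the test in any comparison, and the summed level of a marker list separated del/+ from wt only for choroid plexus in 3g females (3.58 to 5.19 CPM against 6.85 to 16.5 CPM). Cortical excitatory markers varied widely between 3g libraries (summed level 35.9 to 826 CPM). All 4 had positive log2 fold changes in 3g females (median 0.79, Slc17a7 367 CPM in del/+ against 210.0 CPM in wt) and negative ones in 3g males (median -0.64), with del/+ and wt ranges that overlapped in both. Without wt male 17 the male median was 0.50, with all 4 positive. Among the RNA-seq libraries 3 stood apart or went against their labels. On an axis from 0 (mean of the 3g wt females) to 1 (mean of the 16p11.2 wt females), 16p11.2 del/+ male 4 lay at 0.211 and 3g wt male 17 at 0.849, and all other libraries lay between -0.080 and 0.174 (3g) or between 0.818 and 1.25 (16p11.2). In female 1 of the 16p11.2 del/+ group, by its label, Ddx3y of the Y chromosome was at 38.1 CPM and Xist at 0.457 CPM. The main RNA-seq results that rest on these libraries are also given without them.

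Taok2 RNA fell to about the level of 1 gene copy in the striatum of 16p11.2 del/+ mice of both sexes. In males it was at 80.6, 92.4, 82.6 and 86.9 CPM in the del/+ libraries and at 172, 177, 178 and 149 CPM in the wt libraries. The groups did not overlap, and the lowest wt library lay well above the highest del/+ library. The mean was 85.6 ± 5.23 CPM in del/+ and 169 ± 13.5 CPM in wt (SD, n = 4 each). The log2 fold change was -0.98 with a standard error (SE) of 0.092, and the quasi-likelihood test of edgeR, adjusted over all genes by Benjamini-Hochberg, gave an adjusted p of 0.000989. Taok2 was the 1 TAO kinase gene of 3 called in this comparison, in which 0.106% of the 17957 genes tested were called. The del/+ level was 50.6% of wt (95% confidence interval 44.0% to 58.3%). Without del/+ male 4 the log2 fold change was -0.99 (adjusted p = 0.00246). In these bulk samples less Taok2 RNA per cell and fewer cells that express it cannot be told apart.

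In 16p11.2 females Taok2 was at 87.8, 81.2, 81.4 and 83.8 CPM in del/+ and at 171, 185, 172 and 169 CPM in wt. Again every del/+ library lay below every wt library, and both groups were tighter than in males. The change was -1.06 on the log2 scale (SE 0.059, adjusted p = 8.29e-06 by the same test), with a mean of 83.5 ± 3.07 CPM in del/+ and 174 ± 7.05 CPM in wt (SD, n = 4 each). This is 48.0% of wt (43.8% to 52.5%). Taok2 ranked 3 by p among the 18067 genes tested, of which 0.144% were called, and neither paralog was called. Without the library labelled del/+ female 1 the log2 fold change was -1.09 (adjusted p = 5.02e-05). No difference between males and females in the size of the 16p11.2 reduction was detectable, with an interaction of -0.076 for Taok2 (95% interval -0.28 to 0.13, adjusted p = 0.894 by edgeR over 16 libraries). In this interaction edgeR called 0 of 18870 genes, DESeq2 called 3, and 818 had an unadjusted p under 0.05 in edgeR. The 16 libraries include the library labelled del/+ female 1, whose Xist and Ddx3y levels go against its label. With each of the 16 left out in turn, this one included, the Taok2 interaction was between -0.10 and -0.021.

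**Figure D1:**
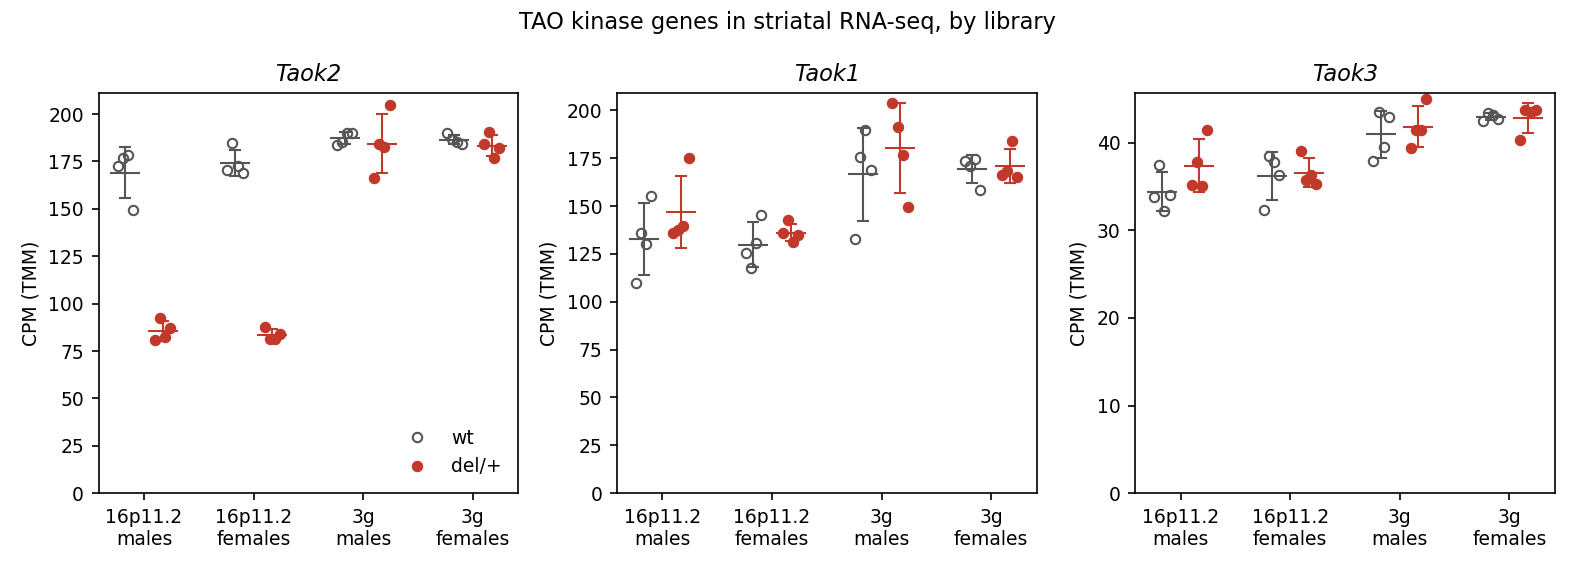
CPM of Taok2, Taok1 and Taok3 (y axes, from 0, TMM-normalized within each comparison) in the RNA-seq libraries of each line and sex, with wt as open and del/+ as filled points and with bars for the mean and SD of 4 libraries. Taok2 separates the genotypes in 16p11.2 males (80.6 to 92.4 against 149 to 178 CPM) and females (81.2 to 87.8 against 169 to 185 CPM), and in the other panels and groups del/+ and wt points overlap.

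The lysates of other 16p11.2 males gave the same picture. Taok2 lysate RNA was at 53.7, 43.0 and 43.1 CPM in del/+ and at 90.8, 102, 97.8 and 91.9 CPM in wt. The groups did not overlap, and the del/+ library RNA-504 was the highest of its group. Relative to wt, Taok2 lysate RNA was at -1.04 on the log2 scale (SE 0.11, adjusted p = 0.00155 by edgeR's quasi-likelihood test), or 48.8% of wt (41.3% to 57.6%). Taok2 was the 1 member called, where 0.133% of 14330 genes were called.

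Taok2 footprints were lower in every 16p11.2 del/+ animal, but the difference did not pass the threshold over all genes. The footprint counts were 25, 23 and 24 in del/+ and 43, 58, 60 and 84 in wt, which corresponds to 68.8, 63.9 and 71.6 CPM in del/+ and 120, 138, 123 and 153 CPM in wt. No del/+ animal reached the lowest wt animal. The log2 fold change was -0.97 (SE 0.24, unadjusted p = 0.000278 and adjusted p = 0.0921 by edgeR's quasi-likelihood test), or 51.0% of wt (36.4% to 71.4%). None of the 3 members was called, and 0.117% of 5964 genes were. With 3 against 4 animals an exact two-sided permutation test gave p = 0.0571 for Taok2, the smallest value it can give. The interval, which is not adjusted for the number of genes tested, lies below the wt level throughout, and it is the widest of the 4 Taok2 intervals of this line.

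Translational efficiency, the footprint change beyond the change in lysate RNA of the same animals, was not detectably altered for any TAO kinase gene in the 16p11.2 line. For Taok2 the log2 difference was -0.023 (95% interval -0.52 to 0.47), for Taok1 0.26 (-0.23 to 0.75) and for Taok3 -0.42 (-1.21 to 0.38). None was called, against 0.00664% of 15071 genes (adjusted p between 0.922 and 1.00 by edgeR's interaction test). This fit had no term for the animal, and no call changed with the animal as a block. The intervals are wide, and that of Taok3 extends beyond 1 log2 unit downwards.

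Taok2 changed by about as much as the other genes of the deleted interval. In RNA-seq of 16p11.2 males 23 other genes of the interval were tested, with log2 fold changes between -1.49 and 0.018, a median of -1.12, and 14 of them called lower, against 0.0947% of all genes called lower. By log2 fold change from the lowest, Taok2 ranked 17 of 24, between Hirip3 (-0.98), which encodes a histone chaperone, and Tlcd3b (-0.97), which encodes a ceramide synthase. In females it ranked 12 of 24, between Tlcd3b (-1.07) and Kctd13 (-1.05), which encodes an adaptor of a cullin-3 ubiquitin ligase, and 16 of the 23 others were called lower (0.111% of all genes). In lysate RNA it ranked 12 of 23, between Ino80e (-1.09), a subunit of the INO80 chromatin remodeller, and the glycolytic aldolase Aldoa (-0.999), and 13 of the 22 others were called lower (0.126% of all genes). In footprints it ranked 9 of 11, between Mapk3 (-1.09), which encodes the kinase ERK1, and Sez6l2 (-0.97), and 2 of the 10 others were called lower (0.0503% of all genes). All these genes were measured in the same libraries, and the order was not tested. Without del/+ male 4 Taok2 ranked 17 of 25 in males, with 14 of 24 others called, and without the library labelled del/+ female 1 it ranked 9 of 24 in females, with 14 of 23 others called.

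**Figure D2:**
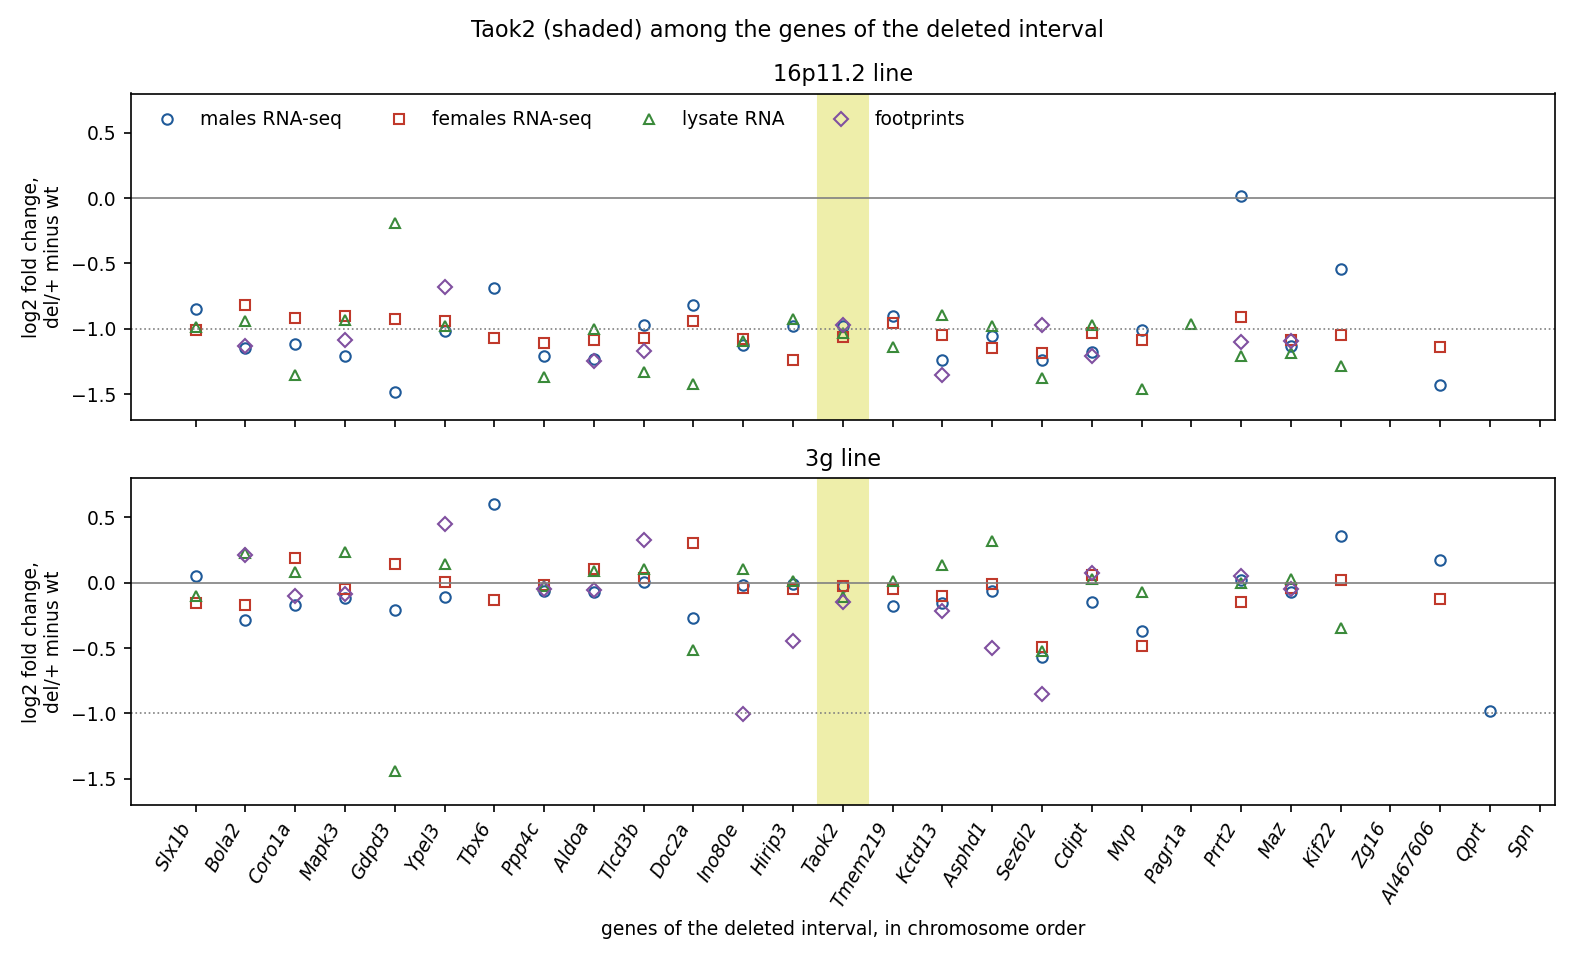
Log2 fold change of del/+ minus wt (y axes) for Taok2 (shaded) and the other genes of the deleted interval in chromosome order (x axis), for the 16p11.2 line above and the 3g line below, with 1 symbol per assay. In the 16p11.2 line Taok2 lies between -1.06 and -0.97 in all 4 comparisons, close to the dotted line that marks a halving, and in the 3g line between -0.15 and -0.021, where Sez6l2 is lower (-0.85 to -0.49).

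No difference of Taok2 RNA between 3g del/+ mice, in which by design 1 Taok2 allele carries the premature stop, and wt was detectable in these counts. In males Taok2 was at 166, 184, 183 and 205 CPM in del/+ and at 184, 185, 190.0 and 190.0 CPM in wt. The del/+ libraries spread on both sides of the narrow wt range. Taok2 in 3g males had a log2 fold change of -0.021 (95% interval -0.19 to 0.15, adjusted p = 0.986 by edgeR's quasi-likelihood test), or 98.5% of wt (87.6% to 111%). Of the 19081 genes tested edgeR called 0 (0%), with 274 at an unadjusted p under 0.05 and 1 called by DESeq2. Without wt male 17 the Taok2 value was -0.031. In females Taok2 was at 184, 190.3, 177 and 182 CPM in del/+ and at 189.8, 187, 185 and 184 CPM in wt, with groups that overlapped. The female log2 fold change was -0.024 (95% interval -0.095 to 0.047, adjusted p = 0.820), or 98.3% of wt (93.6% to 103%), and none of the 3 members was called among 19024 genes, of which 0.00526% were. The 95% intervals reached down to 87.6% of wt in males and 93.6% in females. These limits are for a single gene, are not adjusted for the number of genes tested, and are not firm bounds. In the lysates of other 3g males, given below, the lower limits were 78.9% for RNA and 65.0% for footprints. The del/+ libraries were shallower than the wt libraries in 3g females (24332636 to 36821127 against 42289823 to 65529807 counts) and mostly so in 3g males, and the cortical excitatory markers also differed as given above. The part of either in these values was not tested. The interaction of genotype and sex was 0.0033 (-0.16 to 0.17, adjusted p = 1.00), where edgeR and DESeq2 each called 0 of 19830 genes and 533 had an unadjusted p under 0.05 in edgeR.

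Of the other edited genes of the 3g line, Sez6l2 passed the test in females and Mvp in no comparison. Sez6l2, which encodes a neuronal membrane protein with sushi domains, averaged 215 CPM in del/+ males against 320 CPM in wt males (log2 fold change -0.57, adjusted p = 0.807). In females it was at 212 and 298 CPM (-0.49, adjusted p = 0.00336) and was the 1 gene that edgeR called. DESeq2 called 109 genes in that comparison, and edgeR called 158 with no filter on low counts, 175 without wt female 39 and 18 without del/+ female 37. Mvp, which encodes the major vault protein, had -0.37 in males (adjusted p = 0.974) and -0.48 in females (adjusted p = 0.0663). Without wt male 17 the male values were -0.53 for Sez6l2 (adjusted p = 0.142) and -0.41 for Mvp (adjusted p = 1.00). In lysate RNA Sez6l2 was at -0.53 (adjusted p = 0.109) and Mvp at -0.067 (adjusted p = 0.987), and in footprints Sez6l2 was at -0.85 (adjusted p = 0.399). These values stand beside those of Taok2, and the difference between the genes was not tested.

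Lysate RNA of the 3g line was at 84.2, 102 and 99.96 CPM of Taok2 in del/+ and at 102, 112 and 95.04 CPM in wt. The lowest value was that of del/+ library RNA-302, and the groups overlapped. Lysate RNA of Taok2 differed by -0.11 on the log2 scale (95% interval -0.34 to 0.12, adjusted p = 0.962 by edgeR's quasi-likelihood test), or 92.6% of wt (78.9% to 109%), and 0.0209% of 14378 genes were called, none of them a TAO kinase gene. Footprint counts of Taok2 were 81, 99 and 97 in del/+ and 76, 56 and 69 in wt, or 182, 152 and 175 CPM in del/+ and 218, 151 and 195 CPM in wt. All del/+ footprint libraries were deeper (527917 to 678130 counts) than the wt ones (342052 to 422918), and the groups overlapped in CPM. The log2 fold change of footprints was -0.15 (-0.62 to 0.32, adjusted p = 0.904), or 90.1% of wt (65.0% to 125%), and 0.0132% of 7553 genes were called, none of them a member. Translational efficiency of Taok2 in the 3g line was -0.0087 (-0.49 to 0.48). In that interaction edgeR called 0 of 15137 genes (0%), DESeq2 called 26, and 1161 had an unadjusted p under 0.05 in edgeR.

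**Figure D3:**
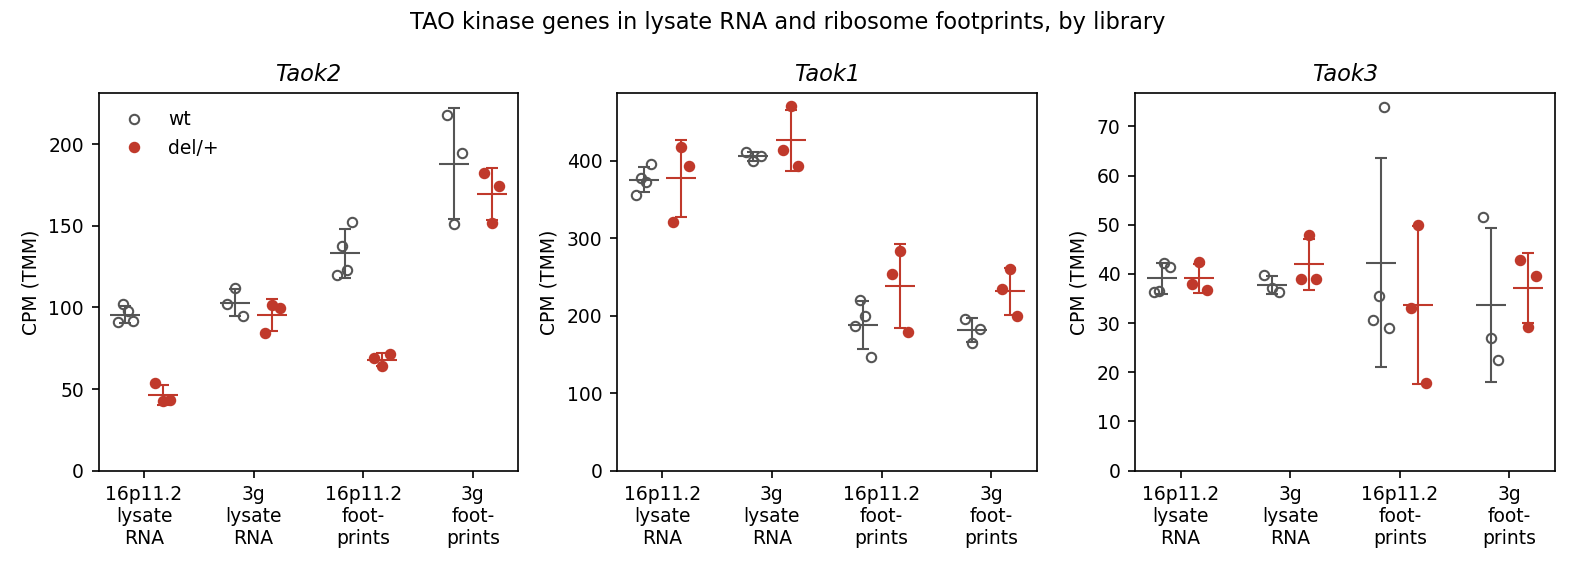
CPM of the TAO kinase genes (y axes, from 0, TMM-normalized within each comparison) in lysate RNA and ribosome footprints of males, with wt as open and del/+ as filled points and with bars for the mean and SD of 3 or 4 animals. Taok2 of the 16p11.2 line separates the genotypes in lysate RNA (43.0 to 53.7 against 90.8 to 102 CPM) and in footprints (63.9 to 71.6 against 120 to 153 CPM), and Taok1 footprints of the 3g line are 200 to 261 CPM in del/+ and 165 to 195 CPM in wt.

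The change of Taok2 differed between the lines by a test of the difference itself. Over all 32 RNA-seq libraries the del/+ minus wt difference of the 16p11.2 line minus that of the 3g line was -0.997 log2 units (SE 0.062, 95% interval -1.12 to -0.87, adjusted p = 1.2e-11 by edgeR's quasi-likelihood test), and Taok2 ranked 1 by p of the 20342 genes tested, of which 0.123% were called. Without the 3 libraries named above it was -1.01 (adjusted p = 3.09e-11). In lysate RNA the difference was -0.93 (SE 0.16, adjusted p = 0.0161), with 0.122% of 14740 genes called. This call was lost when any of 6 libraries was left out (RNA-300 or RNA-318 of 3g wt, RNA-303 or RNA-319 of 3g del/+, RNA-506 or RNA-516 of 16p11.2 del/+), with adjusted p up to 0.101, and the difference stayed between -1.05 and -0.87. In footprints it was -0.82 (95% interval -1.46 to -0.19, unadjusted p = 0.0127, adjusted p = 0.393), where 0.169% of 7692 genes were called. Neither Taok1 nor Taok3 was called in any of the 3 assays, with differences between -0.063 and 0.048 for Taok1 and between -0.46 and 0.056 for Taok3.

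On a scale common to all 32 RNA-seq libraries the level of Taok2 was lowest in 16p11.2 del/+ males (87.9 ± 5.29 CPM) and del/+ females (88.5 ± 2.49 CPM). The other groups followed as 16p11.2 wt males (174 ± 14.01), 3g del/+ males (176 ± 16.9), 3g del/+ females (176 ± 5.94), 3g wt females (179 ± 2.31), 3g wt males (179 ± 3.11) and 16p11.2 wt females (184 ± 7.60 CPM). Only the step from the 16p11.2 del/+ groups to the rest exceeded the spread, and all other neighbours in this order lay closer together than the larger SD of the pair. For Taok1 the groups ran from 137 ± 18.9 CPM in 16p11.2 wt males to 172 ± 20.4 CPM in 3g del/+ males, and for Taok3 from 35.5 ± 2.25 CPM in 16p11.2 wt males to 41.2 ± 0.421 CPM in 3g wt females. For both paralogs the 16p11.2 groups came before the 3g groups, as they did without the 3 libraries that stand apart, where the Taok2 means were 87.6 and 87.3 CPM in 16p11.2 del/+ males and females and 174 to 184 CPM in the other groups. The lines were counted in separate tables, and line and batch cannot be told apart in these levels. The summed cortical excitatory markers also differed between the lines, with ranges that overlapped. They were at 691 to 1214 CPM in 16p11.2 and 35.9 to 826 CPM in 3g RNA-seq libraries, scaled within each comparison. Their part in these levels was not tested. Averaged over genotypes, females minus males was 0.039 for Taok2 in the 16p11.2 line (adjusted p = 0.838) and -0.0062 in the 3g line (adjusted p = 1.00), and no member was called between the sexes in either line (0.0053% and 0.131% of genes called). The 16p11.2 females here include the library labelled del/+ female 1. With each of the 16 libraries left out in turn, this one included, the Taok2 value of that line was between 0.012 and 0.057.

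The paralogs did not rise detectably where Taok2 fell. Taok1, a kinase known to regulate microtubules and to activate p38, was in 16p11.2 males at 136, 137, 140 and 175 CPM in del/+ and at 110, 136, 130 and 155 CPM in wt. The groups overlapped, and the highest value was that of del/+ male 4. Taok1 in males had a log2 fold change of 0.15 (95% interval -0.13 to 0.42, adjusted p = 0.786 by edgeR's quasi-likelihood test) and 0.049 without that library. In 16p11.2 females Taok1 was at 136, 143, 131 and 135 CPM in del/+ and at 126, 118, 131 and 145 CPM in wt (log2 fold change 0.069, -0.089 to 0.23, adjusted p = 0.998, and 0.070 without the library labelled del/+ female 1), and in lysate RNA at 321, 418 and 393 CPM in del/+ and at 356, 377, 373 and 396 CPM in wt (0.0071, -0.24 to 0.26). In both the del/+ and wt values overlapped.

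Taok3, a paralog also known from stress signalling, was in 16p11.2 males at 35.2, 37.8, 35.1 and 41.5 CPM in del/+ and at 33.8, 37.5, 32.2 and 34.1 CPM in wt. The groups overlapped, with a log2 fold change of 0.12 (-0.088 to 0.33, adjusted p = 0.767), and of 0.065 without del/+ male 4. In 16p11.2 females the log2 fold change was 0.015 (-0.15 to 0.18) and -0.017 without the library labelled del/+ female 1, and in lysate RNA it was -0.00022 (-0.22 to 0.22). Taok3 footprints rested on 6 to 36 counts per library, and their log2 fold change of -0.33 had an interval of -1.12 to 0.46 (adjusted p = 0.962). The highest count of 36 was that of the wt library RIBO-505.

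In the 3g line the RNA of both paralogs overlapped between the genotypes in every assay. The log2 fold changes of Taok1 were 0.11 in males (adjusted p = 0.974), 0.012 in females (adjusted p = 0.9498) and 0.070 in lysate RNA (adjusted p = 0.975), and Taok3 had 0.030, -0.0053 and 0.15 (adjusted p between 0.949 and 0.979). Without wt male 17 the male values were 0.014 for Taok1 and -0.0038 for Taok3.

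Taok1 footprints had positive log2 fold changes of similar size in both lines, none of which passed the test. In the 3g line they were at 234, 261 and 200 CPM in del/+ and at 195, 165 and 183 CPM in wt. Every del/+ animal lay above every wt animal, and the log2 fold change was 0.36 (95% interval -0.10 to 0.81, adjusted p = 0.696 by edgeR's quasi-likelihood test). The exact two-sided permutation p was 0.1, the smallest that 3 against 3 animals can give. The footprint libraries of the 3 del/+ animals were also the 3 deepest of that line, and the part of depth in this difference was not tested. In the 16p11.2 line Taok1 footprints were at 253, 284 and 179 CPM in del/+ and at 187, 221, 199 and 147 CPM in wt, with overlapping groups and a log2 fold change of 0.35 (-0.085 to 0.78, adjusted p = 0.880). In translational efficiency Taok1 had 0.26 (adjusted p = 0.922) in the 16p11.2 line and 0.32 (-0.16 to 0.80, adjusted p = 0.786) in the 3g line.

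**Figure D4:**
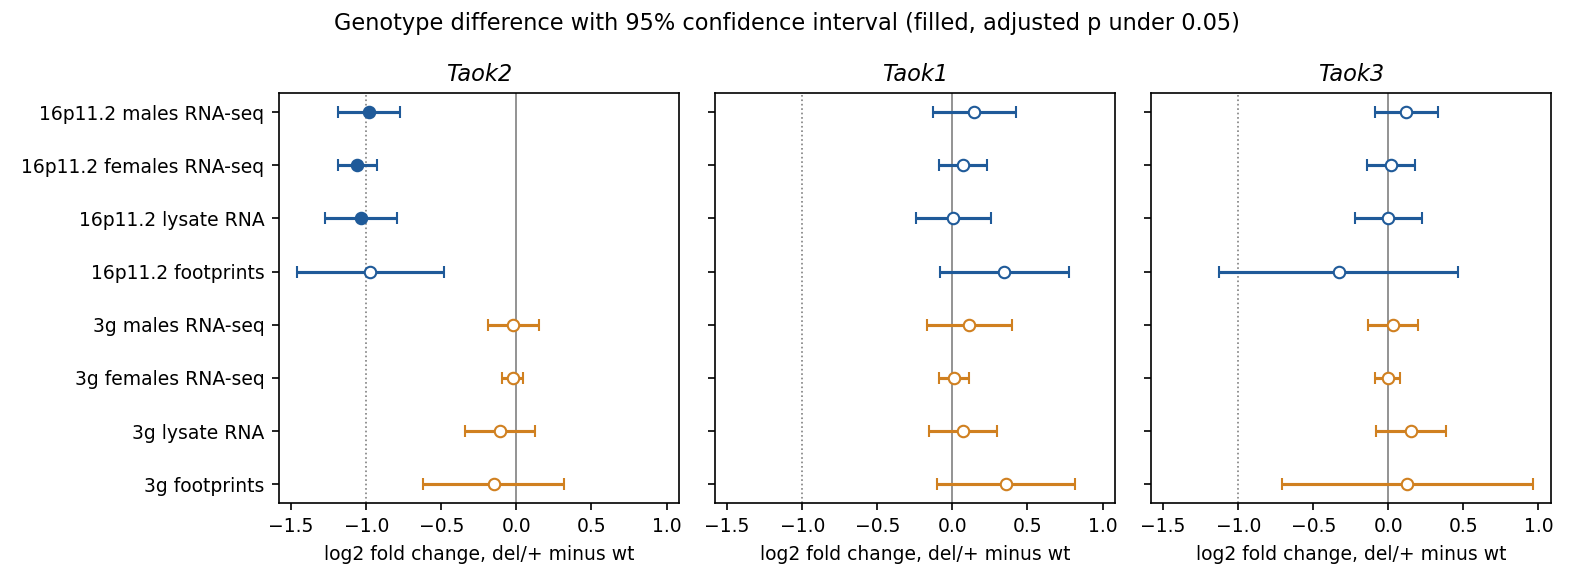
Log2 fold change of del/+ minus wt with its 95% confidence interval (x axes) for the 3 TAO kinase genes in the 8 comparisons (rows), with the 16p11.2 line in blue and the 3g line in orange, filled where the adjusted p was under 0.05. The filled points are Taok2 in 16p11.2 males (-0.98), females (-1.06) and lysate RNA (-1.04), and the footprint intervals are the widest for each gene within a line.

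The ratio of Taok2 to the sum of its paralogs was lower in every 16p11.2 del/+ library than in every wt library of the same comparison, but no comparison passed after adjustment over the 8. As counts within a library, the ratio of Taok2 to Taok1 plus Taok3 does not depend on library scaling. It is no ratio of molecules, since gene lengths were not used, and it is compared only between genotypes. In 16p11.2 males it was 0.470, 0.527, 0.473 and 0.402 in del/+ and 1.20, 1.02, 1.10 and 0.787 in wt, and in females 0.502, 0.455, 0.485 and 0.493 against 1.08, 1.18, 1.02 and 0.931. In both sexes every del/+ library lay below every wt library, and the log2 difference was -1.12 in each. The exact two-sided permutation p was 0.0286 in each sex, the smallest that 4 against 4 libraries can give, and 0.114 after Benjamini-Hochberg adjustment. Neither paralog was called, and the ratio holds the same Taok2 counts as the results above. Without del/+ male 4 the log2 difference was -1.05 in males, and without the library labelled del/+ female 1 it was -1.14 in females. In lysate RNA the ratio was 0.114 ± 0.0305 in del/+ and 0.231 ± 0.0152 in wt (n = 3 and 4, exact permutation p = 0.0571, the smallest possible), and in footprints 0.265 ± 0.0886 and 0.601 ± 0.182 (exact permutation p = 0.0571). With Taok1 or Taok3 alone as denominator the log2 differences of RNA-seq and lysate RNA were between -1.13 and -1.04. The footprint ratio differed with the denominator. Its log2 difference was -1.29 with Taok1 alone (exact permutation p = 0.0571) and -0.62 with Taok3 alone (exact permutation p = 0.4). Taok3 footprints rested on few counts, as given above, and the part of this in the ratio was not tested.

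In the 3g line the ratio overlapped between genotypes in RNA-seq and in lysate RNA. It was 0.841 ± 0.155 in del/+ and 0.912 ± 0.114 in wt males, 0.860 ± 0.0558 and 0.878 ± 0.0263 in females, and 0.204 ± 0.0236 and 0.232 ± 0.0213 in lysate RNA (exact permutation p = 0.371, 0.686 and 0.3). In 3g footprints it was 0.659, 0.524 and 0.729 in del/+ and 0.884, 0.789 and 0.945 in wt. There the groups did not overlap, with a log2 difference of -0.46 and an exact permutation p of 0.1, the smallest possible. In these animals Taok2 footprints were at 90.1% and Taok1 footprints at 128% of wt, and neither passed the test. The footprint log2 difference was -0.49 with Taok1 alone as denominator (exact permutation p = 0.1) and -0.35 with Taok3 alone (exact permutation p = 0.4). In 3g lysate RNA it was -0.18 with Taok1 alone (exact permutation p = 0.3) and -0.26 with Taok3 alone (exact permutation p = 0.1).

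**Figure D5:**
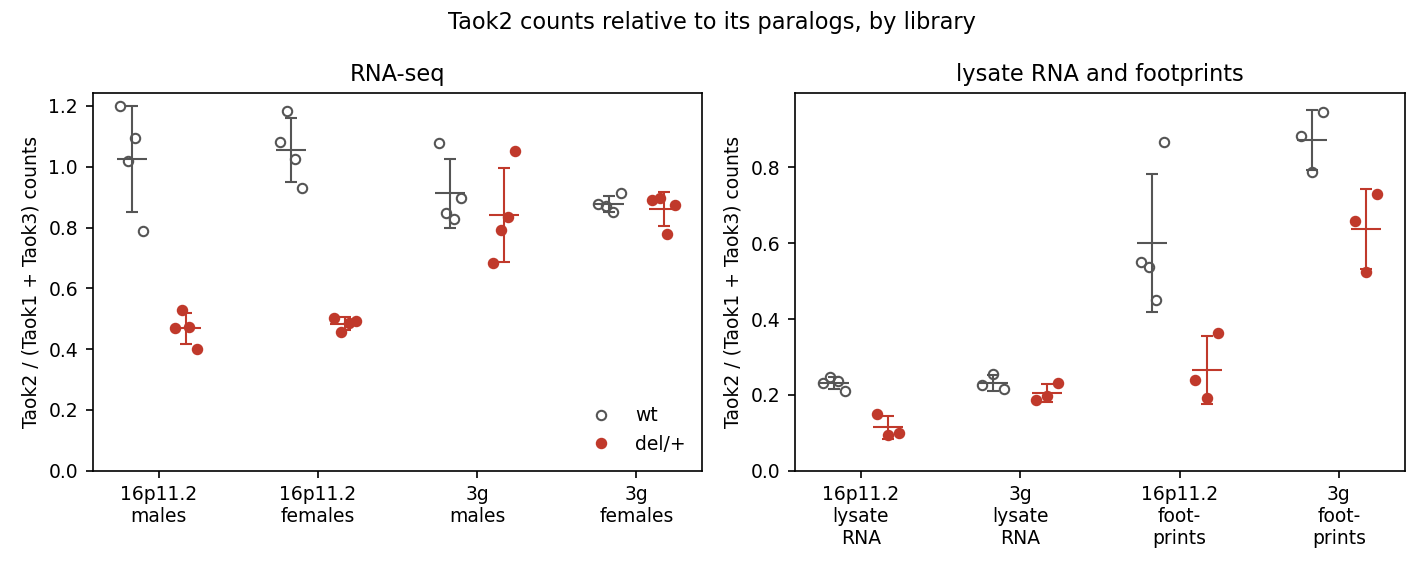
Ratio of Taok2 counts to the sum of Taok1 and Taok3 counts (y axes, from 0) in each library, with wt as open and del/+ as filled points and with bars for the mean and SD of 3 or 4 libraries. The ratio is lower in every del/+ library of the 16p11.2 line, overlaps between genotypes in 3g RNA-seq and lysate RNA, and is 0.524 to 0.729 in del/+ and 0.789 to 0.945 in wt in 3g footprints.

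Footprints relative to lysate RNA lay above the median of all genes for Taok2 in most animals and below it for Taok1, and Taok3 overlapped with both. The log2 ratio of footprint to lysate RNA CPM, less the median over all genes in the same animal, was positive for Taok2 in 12 of 13 animals, with group means between 0.22 and 0.31. It was negative for Taok1 in all 13 animals, with group means of -1.26 ± 0.29 (16p11.2 wt), -0.92 ± 0.43 (16p11.2 del/+), -1.75 ± 0.069 (3g wt) and -1.43 ± 0.084 (3g del/+). For Taok3 the group means were -0.24 ± 0.56 (16p11.2 wt), -0.57 ± 0.65 (16p11.2 del/+), -0.84 ± 0.53 (3g wt) and -0.73 ± 0.46 (3g del/+), with single animals between -1.29 and 0.54. The median was over 15071 genes in the 16p11.2 line and 15137 in the 3g line, whereas 5964 and 7553 genes were deep enough in footprints to be tested. Genes with few footprints thus enter the median. No test of the difference between genes was made. Untranslated sequence adds to the RNA counts and not to footprints, so this difference between genes is described and not read as a rate of translation.

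No tested gene of the lists of TAO kinase pathways passed edgeR's test in any of the 8 comparisons, in which 0% to 0.144% of all genes were called. At such shares the absence of a call does not set these short lists apart from other genes. In 16p11.2 males the 11 genes of the p38 and JNK cascade had a median log2 fold change of 0.11, against -0.0051 over all genes, and 8 of the 11 were positive against 49.1% of all genes. Furthest from 0 were Mapk11 (0.38, adjusted p = 0.742), which encodes p38 beta, and Map2k3 (0.30, adjusted p = 0.758), a kinase that activates p38. Without del/+ male 4 the median was 0.033, with 9 positive, and these genes were at 0.26 and 0.25. In 16p11.2 females the median of this list was -0.016, with 1 of 11 positive against 49.6% of all genes. It was -0.053 with none positive without the library labelled del/+ female 1. In 3g males it was -0.033, with 3 of 10 positive against 50.0% of all genes, and 0.035 with 7 positive without wt male 17. In 3g females it was 0.10, with 10 of 11 positive against 49.5% of all genes. In these libraries the 4 cortical excitatory markers had a median of 0.79, and the part of those cells in the list was not tested.

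The 14 genes of the Hippo cascade had a median of 0.097 in 16p11.2 males, with 10 positive against 49.1% of all genes, and of 0.041 in females. The largest values in males were those of the transcription factors Tead3 (0.36, adjusted p = 0.742) and Tead2 (0.30, adjusted p = 0.831). The 10 described partners and substrates of TAO kinases had a median of -0.099 in 16p11.2 males, with 2 positive against the same 49.1%, and -0.059 in females. Among them Map3k7, which encodes the kinase TAK1, was at 0.18 (adjusted p = 0.742) and Tesk1, a kinase that phosphorylates cofilin, at -0.13 (adjusted p = 0.787). The other 16 MAP3 kinase genes, which feed the same cascades, had medians of 0.059 in 16p11.2 males and -0.013 in females, and Map3k15 (0.50, adjusted p = 0.745) and Map3k20 (0.29, adjusted p = 0.748) lay furthest from 0 in males. Map3k15 was also at a low level, with 1.32 CPM in del/+ and 0.934 CPM in wt (SE 0.31). Without del/+ male 4 the male medians were 0.070 for the Hippo cascade, -0.059 for the partners and -0.026 for the MAP3 kinases, the last with the opposite sign, and no gene was called. Without the library labelled del/+ female 1 the female medians were 0.037, -0.049 and 0.0036. In footprints fewer genes of these lists were deep enough to be tested (6 of 11 for the p38 and JNK cascade and 3 of 14 for the Hippo cascade in the 16p11.2 line).

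The genes whose pattern was most like that of Taok2 over the 32 RNA-seq libraries came from chromosome 7. Likeness was the root mean square difference of log2 CPM after centring each gene on its mean, over 15095 genes. The nearest were Asphd1 (0.0849), Cd2bp2 (0.115), Ino80e (0.123), Tlcd3b (0.129) and Maz (0.134 log2 units). All but Cd2bp2 were on the list of the deleted interval, and Cd2bp2 lies at 7:127191660-127196077, beyond the last gene of that list. The end of the list is not a measured end of the deletion. Whether the deletion of this line includes Cd2bp2 was not tested. Nearest to Taok1 were Pikfyve (0.0578) and Pbrm1 (0.0604), and nearest to Taok3 were Elac1 (0.0682) and Anapc4 (0.0698 log2 units). These libraries share the difference between the lines, which enters each of these values. Without the 3 libraries that stand apart the 5 nearest to Taok2 came in the same order, and Fbxl20 (0.0696) took the place of Anapc4 for Taok3.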

How the data were processed

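RNA-seq was done on 32 striatal libraries, and ribosome footprints and lysate RNA on 13 libraries each. The deposited values are whole-number counts per gene, which the authors did not normalize. For the RNA-seq counts the study names the bcbio-nextgen pipeline, and the submitters' processing notes name HTSeq and mm10. For lysate RNA and footprint counts the notes name Bowtie2 and mm39. Versions, annotation and use of strand in counting are not given in the sources used here. The sources differ on whether RNA was selected by polyA or by ribosomal RNA depletion, which can change the level of a gene relative to others.

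Groups came from the labels. Each library is taken as 1 mouse, as the study describes, and p-values measure the spread between libraries. No pair of libraries agreed within sampling noise (lowest chi-square per degree of freedom 2.21). Gene names matched 54409 of 54532 and 18377 of 18411 identifiers. Genes were filtered (filterByExpr), normalized (TMM) and tested with edgeR 4.0.16 (glmQLFit and glmQLFTest) in R 4.3.3, for del/+ against wt in each line, sex and assay, with Benjamini-Hochberg adjustment over all genes tested and a call at an adjusted p under 0.05. CPM are on TMM-scaled library sizes, and log2 CPM used a prior count of 2. Intervals are 95% from the SE of the fit. Translational efficiency was the interaction of genotype and assay without a term for the animal, and the difference between lines a contrast over all libraries of an assay. Single values were compared by exact two-sided permutation (scipy 1.17.1). The steps were tested on simulated data. Promoter sequences and gene positions are from RefSeq (GRCm38.p6), and all 3 members matched.

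Named genes were the 3 members in every comparison, any called gene of the pathway lists or otherwise the 2 with the largest absolute log2 fold change in 16p11.2 males, the neighbours of Taok2 by log2 fold change in the deleted interval, the nearest genes by pattern (5 for Taok2, 2 for each paralog), and Sez6l2 and Mvp. Also named were the genes at either end of the log2 fold changes of the interval in 16p11.2 males. The members and lists were chosen with earlier results of these data known. The alternatives were DESeq2 1.42.0, normalization by RLE, all genes kept without a filter, all 16 RNA-seq libraries of a line together, TMM within each assay, the replicate or animal number as a block, another denominator of the ratio, each library left out in turn and, chosen after seeing the data, the libraries that stand apart left out.

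Footprint and lysate RNA libraries of an animal came from the same lysate by their labels. The replicate numbers of the 16p11.2 RNA-seq libraries do not mark a shared animal.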

Additional observations from a re-analysis of the deposited data

Results flagged for a closer look

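Of 30 groups of 4 libraries examined, 3 held a library far from the rest, where chance gives about 1 in 20 groups. Taok1 in 16p11.2 del/+ male 4 was at 175 CPM, against 136 to 140 CPM in the other del/+ males, and this library is also among those that stand apart between the lines. Taok3 in 3g del/+ female 28 was at 40.3 CPM, against 43.5 to 43.7 CPM in the other 3. Taok3 footprints of the 16p11.2 wt library RIBO-505 were at 73.9 CPM, against 29.1 to 35.6 CPM in the other wt animals.

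The genotype difference of Taok2 differed between the 16p11.2 and 3g lines by the test of the difference, by -0.997 log2 units in RNA-seq and -0.93 log2 units in lysate RNA. Leaving out 1 library ended the call in lysate RNA for 6 of 13 libraries.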

How the results depend on the processing

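The calls of Taok2 in 16p11.2 males, females and lysate RNA held under every alternative run, including DESeq2, no filter and each library left out (adjusted p at most 0.035, with the replicate number as a block in males). Taok2 footprints of the 16p11.2 line were called under none (adjusted p = 0.0624 with no filter, 0.132 to 0.486 with 1 library left out, and none given by DESeq2). Near 0 the sign changed for uncalled values: translational efficiency of Taok2 was 0.046 with DESeq2 and 0.022 with TMM within each assay in the 16p11.2 line, and 0.017 with TMM within each assay in the 3g line. The genotype by sex interaction was -0.0022 for Taok2 in the 3g line with DESeq2. Without the libraries that stand apart it was 0.025 for Taok1 in the 16p11.2 line, and female minus male was 0.0093. The causes were not tested.

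With 1 library left out in turn, results that changed sign or lost their call (for the count ratio, an unadjusted exact p under 0.05) had these ranges. For log2 fold changes, the ranges were -0.036 to 0.045 for Taok3 in 16p11.2 females RNA-seq, -0.079 to 0.024 for Taok2 in 3g males RNA-seq, -0.011 to 0.060 for Taok3 in 3g males RNA-seq, -0.024 to 0.029 for Taok1 in 3g females RNA-seq, -0.015 to 0.024 for Taok3 in 3g females RNA-seq, -0.072 to 0.11 for Taok1 in 16p11.2 lysate RNA, -0.063 to 0.041 for Taok3 in 16p11.2 lysate RNA, -0.73 to 0.10 for Taok3 in 16p11.2 footprints, -0.0017 to 0.12 for Taok1 in 3g lysate RNA, -0.085 to 0.56 for Taok3 in 3g footprints. For translational efficiency, the ranges were -0.047 to 0.14 for Taok2 in 16p11.2, -0.72 to 0.023 for Taok3 in 16p11.2, -0.21 to 0.12 for Taok2 in 3g, -0.18 to 0.39 for Taok3 in 3g. For genotype by sex interaction, the ranges were -0.16 to 0.041 for Taok1 in 16p11.2, -0.042 to 0.055 for Taok2 in 3g, -0.061 to 0.0056 for Taok3 in 3g. For female minus male, the ranges were -0.077 to 0.0062 for Taok1 in 16p11.2, -0.028 to 0.022 for Taok2 in 3g, -0.069 to 0.0091 for Taok1 in 3g. For difference between lines, the ranges were -1.05 to -0.87 for Taok2 in lysate RNA, -0.15 to 0.028 for Taok1 in lysate RNA, -0.16 to 0.16 for Taok1 in footprints. For the log2 difference of the count ratio, they were -1.24 to -1.04 in 16p11.2 males RNA-seq, -1.18 to -1.06 in 16p11.2 females RNA-seq, -0.054 to 0.015 in 3g females RNA-seq. The 16p11.2 ratios had no call after adjustment, and only their unadjusted exact permutation p of 0.0286 was under 0.05. Its rise was fixed in advance, because the ratio then compares 3 with 4 libraries, where the smallest exact p is 0.0571.

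The replicate numbers of the 16p11.2 libraries did not pair the samples (correlation of deviations -0.26 to 0.071 in males, -0.012 to 0.11 in females). With the replicate block Taok2 was at -0.98 (adjusted p = 0.035) in males and -1.06 (adjusted p = 0.000737) in females, and 14 and 22 genes were called. With the animal as a replicate block translational efficiency of Taok2 was -0.016 and -0.0048, and no call changed.

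Counts of called genes depended on the tool. They were 19, 26, 0, 1, 19, 7, 3 and 1 in 16p11.2 males, females, 3g males, females, 16p11.2 lysate RNA, footprints, 3g lysate RNA and footprints, and 37, 50, 1, 109, 32, 21, 13 and 13 with DESeq2. With no filter they were 45 in 16p11.2 females, 158 in 3g females, 43 in 16p11.2 footprints, 9 in 3g lysate RNA and 127 in 3g footprints, and 1 in 3g males with all libraries of the line together. With 1 library left out they ran from 17 to 26, 22 to 28, 0 to 1, 1 to 175, 10 to 19, 2 to 13, 3 to 12 and 0 to 24. Footprint depth limits all statements on translation of Taok2 and Taok3.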
